A study of Arabidopsis thaliana with 4 samples.

Results

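Glucose-list-only peaks centred in gene bodies are 448 places in the Arabidopsis genome where chromatin bound by the ANAC060-GFP fusion was listed as enriched in seedlings on glucose and no listed peak of the no-glucose seedlings touched the same bases. They were chosen by measured values, the peak calls of both lists, and by position, with the centre inside a protein-coding gene of the RefSeq table. They make up 448 of the 742 peaks found in the glucose list alone (60.4%, exact 95% interval 56.8 to 63.9), 15.7% of the 2859 glucose peaks and 448 of the 7014 peaks of both lists. Of all glucose peaks 26.0% had no overlap in the no-glucose list, which is the share that the choice itself fixed. Together they span 771 kb, or 13.2% of the bases under glucose peaks.

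The seedlings were 10 d old and of the Col-0 ecotype. The glucose precipitate came from an anac060 mutant that carries 35S:ANAC060-GFP and grew on medium with 6% glucose, and the no-glucose precipitate came from the same line without glucose. Input DNA, which saw no antibody, came from wild-type seedlings, 1 library for each treatment. Each of the 4 groups held 1 library, so nothing below has a replicate check, no test between the conditions was made, and intervals cover counting error only. The labels also name 6% sorbitol without saying which seedlings received it. The line expresses the fusion from the constitutive 35S promoter, so its presence is not limited to cells in which the native gene is active, and the input plants differ from the precipitated line in genotype.

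ANAC060 belongs to the NAC family of plant transcription factors, which bind DNA through an amino-terminal domain. It has been linked to the responses of seedlings to sugar and to the hormone abscisic acid. Binding of such factors is most often mapped to open chromatin beside genes, upstream of the start of transcription, and less often to the transcribed stretch itself.

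The strongest of these peaks lay over genes of several kinds. AT5G40910 carried the highest score, 534 (chr5:16395529-16400501, TAIR10), a peak 4973 bp wide that covered 82.3% of the gene and ranked 36 among all glucose peaks. The score is the authors' own value per peak and ranks peaks only within its own list. Where scores of both lists stand beside each other, they say that each list holds a peak and are not compared in size. Its range fits -10 times the log10 of the p-value, on which the p of 0.001 in the file header gives 30. SEC10, a subunit of the exocyst that tethers secretory vesicles to the plasma membrane, had 289 (chr5:4004250-4009111), with a second such peak of 35.89 at the other side of the gene (chr5:4002698-4004083). SEC10 is known as a tandem duplication that the reference assembly shows as a single gene, and the part of this in its peaks was not tested. OBE1, a PHD-finger protein needed for meristems, had 192 (chr3:2482942-2486503). LOS1, translation elongation factor 2, had 161 (chr1:20966813-20970820), and HOG1, the S-adenosylhomocysteine hydrolase that keeps methylation reactions going, had 153 (chr4:8053692-8057031). All of these lay outside the gene-poor windows described below.

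The next named genes were ATI1 (143), which interacts with the autophagy protein ATG8, and AVP1 (134), the proton-pumping pyrophosphatase of the vacuole. TBL25, of the family that acetylates cell-wall polymers, had 133 and PRORP2, a protein-only RNase P that cuts precursor transfer RNAs, had 124. CYP703A2, a cytochrome P450 of pollen wall formation, had 112, and PyrD, a pyrimidine deaminase, had 109. LecRK-I.9, the receptor kinase for extracellular ATP also known as DORN1, had 104. The unnamed loci among the 25 highest outside the gene-poor windows were AT4G03010 (148), AT3G47100 (132), AT1G69910 (120.2), AT1G73066 (119.6), AT1G66250 (119.6), AT3G03680 (103) and AT1G74370 (101). The 25 highest peaks reached down to a score of 101 and had a median width of 2250 bp. In 7 of them the peak covered at least 80% of the gene, among them HOG1 (94.0%), AVP1 (99.2%) and CYP703A2 (100%). The 5 widest of the 448 lay over AT5G40910, SEC10, AVP1, AT5G58680 (4411 bp, score 82.5) and LOS1.

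Gene-poor windows and a stretch of chromosome 2 held some of the highest. Of the 25 highest, 6 lay in 1 Mb windows with under 100 protein-coding genes or on chromosome 2 between 3 and 4 Mb, where an insertion of mitochondrial DNA is known, against 13 of all 448 (2.90%). These were ABCI4 (323), an ATP-binding cassette protein, AT2G08986 (157), AT2G07702 (145), AT2G07981 (115), AT1G40104 (102) and SHM7 (101), a serine hydroxymethyltransferase. ABCI4 also had a no-glucose peak elsewhere on the gene with a score of 3100. Copy number was not measured, and its part in these peaks was not tested.

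**Figure D1:**
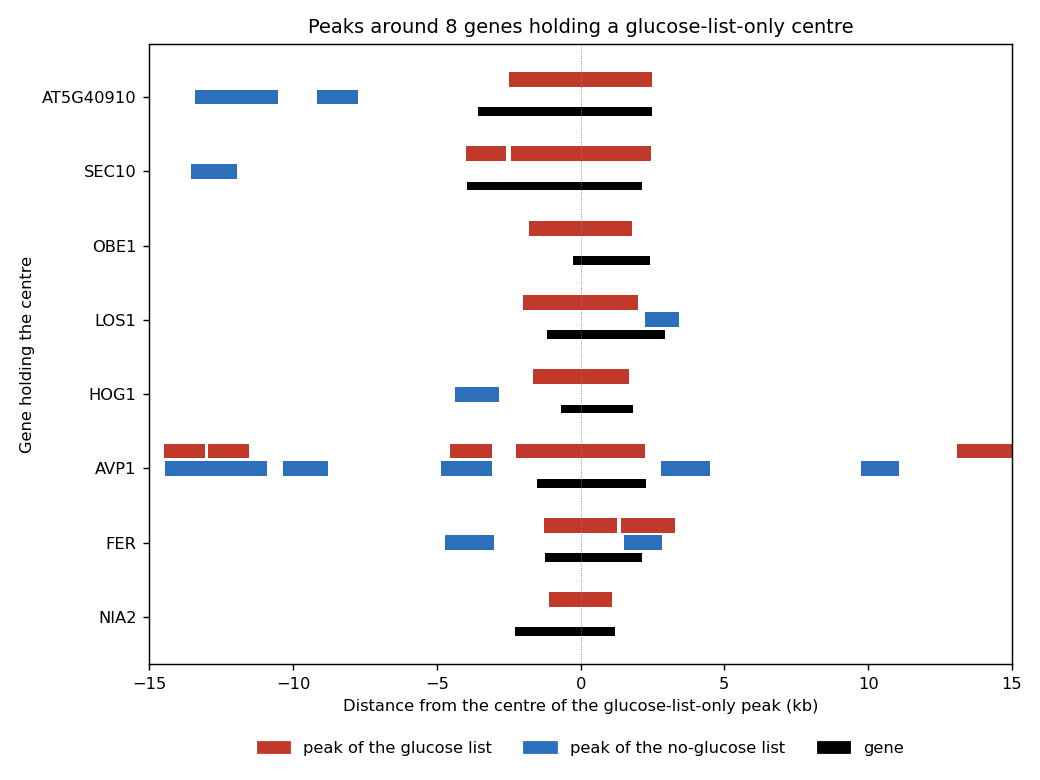
Each row shows 1 gene (black) with the peaks of the glucose list (red) and of the no-glucose list (blue) within 15 kb of the centre of a glucose-list-only peak, on a common axis of distance in kb. The glucose-list-only peaks of AT5G40910, SEC10, OBE1 and NIA2 have no listed no-glucose peak within 5 kb, while LOS1 and FER have one that starts 226 and 225 bp beyond the edge.

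Most of the group lay close to the lower limit of the glucose list. Scores ran from 30.05 to 534 with a median of 42.3 (quartiles 34.6 and 56.7), where the list itself started at 30.02. Below 50 lay 285 of the 448 (63.6%), and 422 (94.2%) lay below 100. Shared glucose peaks centred in gene bodies, 941 in number, had a median of 66.5 (44.6 and 116). Among all glucose peaks centred in gene bodies, the glucose-list-only share was 58.2% at scores of 30 to 35, 44.9% at 35 to 50, 27.2% at 50 to 100 and 8.39% from 100 upward. Scores in the no-glucose list began at 100.01. A place whose no-glucose score was lower than that is therefore counted here as glucose-list-only, whatever its score in the glucose list.

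The peak numbers of the no-glucose list have gaps, which were counted around these peaks. Numbers follow the genome in that list, in rising order on all 5 chromosomes, and reach 7292 although 4155 peaks are listed, so 3137 numbers are missing. If peaks were numbered along the genome before some were left out, the numbers of the nearest listed no-glucose peaks on either side give how many unlisted ones lay between them. No label or file header says by which rule peaks were dropped. Such a pair of neighbours existed for 441 of the 448 peaks. In 371 of them (84.1%, exact 95% interval 80.4 to 87.4) at least 1 number was missing between the neighbours. In 150 exactly 1 was missing, in 85 there were 2 and in 136 there were 3 or more. In 70 (15.9%, 12.6 to 19.6) none was missing. Of the glucose-list-only peaks centred outside gene bodies, 38 of 292 (13.0%, 9.38 to 17.4) had none missing, an interval that overlaps with that of the gene-body peaks.

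Longer intervals have more room for missing numbers, so intervals of like length were set side by side. In intervals under 10 kb, 22 of 58 glucose-list-only gene-body peaks (37.9%, 25.5 to 51.6) lay where no number was missing, against 1636 of all 1915 intervals between listed no-glucose peaks (85.4%). In intervals of 10 to 20 kb the shares were 9 of 75 (12%, 5.64 to 21.6) and 400 of 764 (52.4%). In intervals of 20 to 40 kb they were 23 of 131 (17.6%, 11.5 to 25.2) and 241 of 774 (31.1%). From 40 to 80 kb they were 13 of 108 (6.57 to 19.7%) and 97 of 479 (20.3%), and from 80 kb upward 3 of 69 (4.35%, 0.906 to 12.2) and 30 of 218 (13.8%). In each length class the share without a missing number was lower for the glucose-list-only peaks. Within a class a longer interval still has more room for peaks of either kind, and its part in the difference was not tested. Some intervals hold several of these peaks, 396 intervals for 441 peaks, and where in an interval an unlisted peak lay cannot be read from its number.

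**Figure D2:**
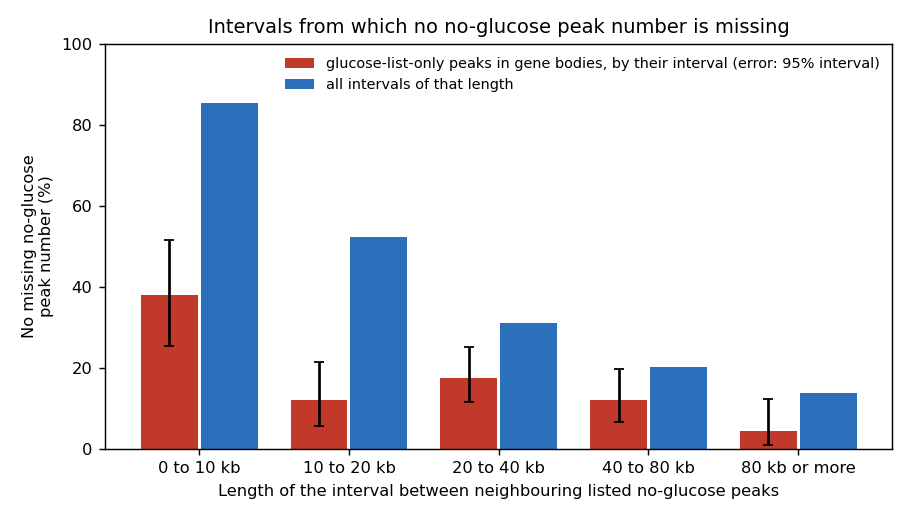
Bars show, for 5 classes of length of the interval between neighbouring listed no-glucose peaks, the percentage without a missing no-glucose peak number, for glucose-list-only peaks in gene bodies (red, with exact 95% intervals) and for all intervals (blue). The red bars run from 37.9% in the shortest class to 4.35% in the longest and stand under the blue ones, at 85.4% and 13.8%, in each class.

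The 70 peaks with no missing number nearby had a median score of 39.8, against 42.8 in the 371 with at least 1. Their genes had a median length of 2852 bp, against 2687 bp. Outside the gene-poor windows the highest was again AT5G40910 (534), followed by AT1G15125 (97.3), AT4G38500 (86.0), FER (84.8), AT3G53950 (82.6), HSL2 (76.4) and ROC4 (68.3). FER is the receptor kinase FERONIA, which reads peptide signals of growth and cell-wall state, HSL2 is a receptor kinase of the HAESA group, and ROC4 is a cyclophilin. FER and HSL2 had a listed no-glucose peak at another place on the gene, with scores of 300.2 and 106. The one at FER overlapped a further glucose peak, which had 112. AT1G15125 had a listed no-glucose peak within 1 kb of the gene, with 223. AT4G38500, AT3G53950 and ROC4 had none on the gene or within 1 kb of it, like 76.2% of all genes that held a glucose-list-only centre.

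Neighbourhood to listed no-glucose peaks varied widely. The gap to the nearest one ran from 21 to 784272 bp, with a median of 5672 bp (quartiles 1892 and 12707). In 31 peaks it was under 500 bp, in 33 from 500 to 1000 bp, in 141 from 1 to 5 kb, in 170 from 5 to 20 kb, in 67 from 20 to 100 kb and in 6 at least 100 kb. Just inside the rule stood AT3G05500 (gap 21 bp, score 33.9), AT4G20880 (28 bp, 43.2) and AT3G60210 (36 bp, 36.4). Just outside it, with an overlap of 11, 14 and 26 bp, stood CYP710A1 (score 95.5), MYB51 (35.5) and GPAT3 (37.7). Farthest from any listed no-glucose peak were AT5G28919 with AT5G28920 (784272 bp), AT3G43110 (473383 bp) and SHM7 (242668 bp), 2 of these places being in gene-poor windows.

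Seen by gene, listed no-glucose peaks also stood at some of these genes. The choice itself left out glucose peaks that overlap a no-glucose peak. The shares below are therefore partly set by the choice, and their likeness to those of all genes is not a result. The 448 centres fell into 462 genes, since 18 centres lay in 2 genes and 4 genes held 2 centres, and these are 1.68% of the 27444 nuclear protein-coding genes. A listed no-glucose peak touched another stretch of the same gene body in 76 of the 462 (16.5%), where 20.9% of all protein-coding genes were touched on the body, and only its 1 kb flanks in 34 more (7.36%). In all 110 genes (23.8%) thus had a no-glucose peak on the body or within 1 kb, where the share among all protein-coding genes was 25.5%. The remaining 352 (76.2%) had none. In 42 genes (9.09%) a shared glucose peak touched the body as well, and the share of all protein-coding genes so touched was not counted. LOS1 was one of the 76 genes with a listed no-glucose peak elsewhere on the body. It had 161 for the glucose-list-only peak and 145 for the no-glucose peak. TBL25 had 133 and 262, and the plasma-membrane proton pump gene HA2 had 32.2 and 711.

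The genes that held these centres were longer than most. Their median length was 2688 bp (95% interval 2560 to 2797, quartiles 1964 and 3609), against 2267 bp for shared glucose peaks centred in gene bodies, 2490 bp for no-glucose-list-only peaks centred in gene bodies and 2078 bp for all nuclear protein-coding genes. All 3 sets lay above the median of all genes, and the part of gene length in holding a centre was not tested. Within the glucose list the order held at like scores. It was 2742 against 2530 bp for the shared peaks at scores of 30 to 35, 2556 against 2425 bp at 35 to 50, 2709 against 2296 bp at 50 to 100, and 2715 against 2068 bp from 100 upward, with 26 and 284 peaks in the last class.

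The peaks also lay more fully inside their genes. The median share of the peak width inside the gene was 66.0% (95% interval 63.8 to 69.3), against 58.9% for shared glucose peaks and 57.7% for no-glucose-list-only peaks in gene bodies. In 69 of 448 (15.4%, 12.2 to 19.1) the whole peak was inside the gene, against 57 of 941 shared peaks (6.06%, 4.62 to 7.78) and 36 of 787 no-glucose-list-only peaks (4.57%, 3.22 to 6.28). Among the 69 were the peaks in NIA2, NRT1.7, SEX1, GLT1 and DWF4. Conversely the peak covered the whole gene in 38 cases (8.48%), against 215 shared peaks (22.8%) and 135 no-glucose-list-only peaks (17.2%). Median widths were 1552, 1790 and 1546 bp. At scores of 30 to 35 the shares of the width inside the gene were 71.9% and 63.9% for glucose-list-only and shared peaks, at medians of 1451 and 1443 bp in width. At 35 to 50, however, they were 64.8% and 63.8%.

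Although inside genes, 299 of 448 centres (66.7%) were closer than 500 bp to a gene end. This was the case for 73.3% of shared and 82.8% of no-glucose-list-only peaks in gene bodies. The distance from the nearer end had a median of 298 bp, and 203 of 448 centres (45.3%, 40.6 to 50.1) were closer than 250 bp, against 50.2% of shared and 62.6% of no-glucose-list-only peaks in gene bodies. The middle 33.3% of the gene length held 71 centres (15.8%, 12.6 to 19.6), against 19.6% of shared peaks (17.1 to 22.2) and 13.3% of no-glucose-list-only peaks (11.0 to 15.9), all under the 33.3% of an even spread. The table used gives no strand, so which end was the start of transcription was not analysed here. Just inside the boundary stood UMAMIT40, AT3G24200 and AT2G39490, with centres at most 1 bp from the gene end and scores of 35.1, 67.5 and 31.3. Just outside, at most 1.5 bp off, stood PPC1, AT3G19970 and AT1G04300, with scores of 46.4, 30.5 and 36.7.

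**Figure D3:**
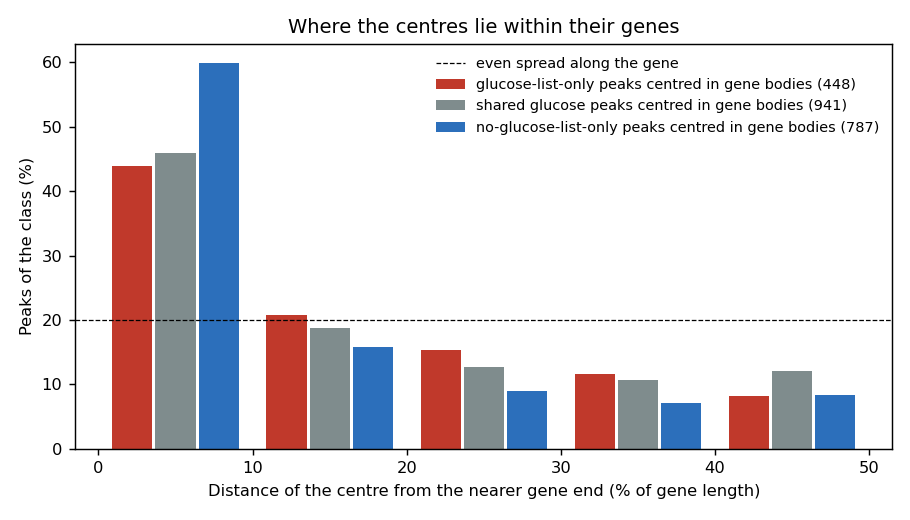
Bars give the percentage of peaks centred in gene bodies by the distance of the centre from the nearer gene end, in percent of gene length, for glucose-list-only (red, 448), shared glucose (grey, 941) and no-glucose-list-only peaks (blue, 787). The first class holds 44.0% of glucose-list-only, 45.9% of shared and 59.8% of no-glucose-list-only centres, all above the dashed line of an even spread.

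The gene-body share at the peak centres was compared with places beside them. For the 742 glucose-list-only peaks it was 60.4% at the centre, 74.0% at 1 kb and 71.0% at 2 kb to the left, and 71.6% and 71.2% at these distances to the right. From 3 to 10 kb away on either side it ranged from 62.1% to 68.3%, with a mean of 65.3%. Shared glucose peaks had 44.4% at the centre and 65.0% to 69.5% from 3 to 10 kb away. No-glucose-list-only peaks had 37.6% at the centre and 62.0% to 66.8% away from it. For the glucose-list-only peaks the share at the centre was below each of the 16 shares measured 3 to 10 kb away, although its interval (56.8 to 63.9) reached above the lowest of them. For the shared peaks the share at the centre was far below the mean of their surroundings, at 44.4% against 66.9%. The 742 peaks of the glucose list alone were thus centred in genes more often than the shared peaks, and not more often than places a few kb from them. The comparison with the shared peaks was not matched on score. At glucose scores of 100 or more, the share of the glucose-list-only peaks was 47.3%, with 26 peaks in gene bodies. The share of the shared peaks at such scores was not counted, so 47.3% is not set against their 44.4%.

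**Figure D4:**
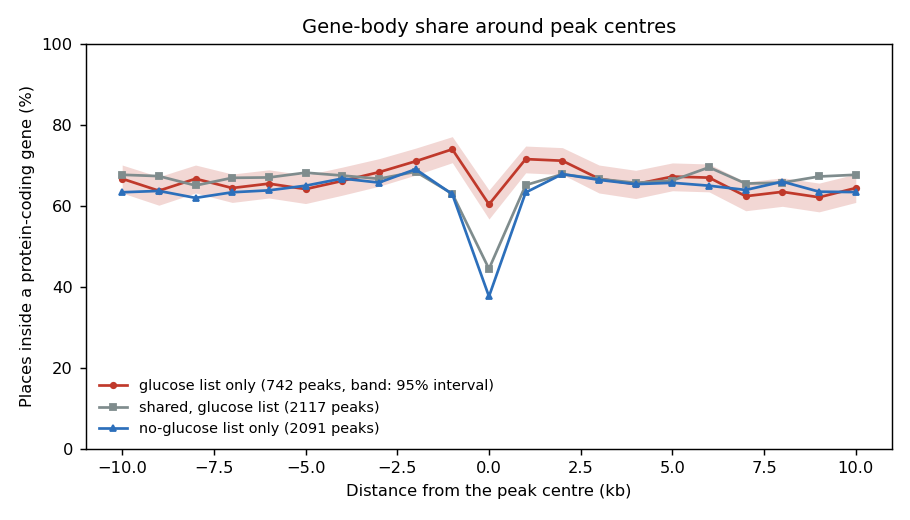
The plot shows the percentage of places inside a protein-coding gene at 1 kb steps up to 10 kb on either side of the peak centre, for glucose-list-only peaks (red, with exact 95% intervals), shared glucose peaks (grey) and no-glucose-list-only peaks (blue). At the centre the curves stand at 60.4%, 44.4% and 37.6%, and beyond 3 kb all 3 run between 62.0% and 69.5%.

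Other annotated features were rare under these peaks. A long noncoding or antisense RNA gene was touched by 33 of 448 (7.37%, 5.12 to 10.2), against 9.78% of shared and 8.01% of no-glucose-list-only peaks in gene bodies. Pseudogenes were touched by 2 (0.446%, 0.0541 to 1.60), against 1.81% (1.06 to 2.88) of shared and 1.02% (0.440 to 1.99) of no-glucose-list-only peaks in gene bodies, with intervals that overlap. Transfer RNA genes were touched by 5. By chromosome the peaks numbered 127, 56, 84, 83 and 98 from chromosome 1 to 5, which is 17.7, 13.0, 15.4, 19.9 and 15.5 for 1000 protein-coding genes. In 9 pairs of neighbouring genes each gene had a centre of its own, among them TBL25 with AT1G01440 and ALDH7B4 with AT1G54110. Besides SEC10, 3 genes held 2 centres each, AT1G63750 (53.7 and 45.0), AT5G67630 (40.9 and 31.6) and CKB2 (47.1 and 33.9), a regulatory subunit of casein kinase 2.

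Gene lists of pathways and families of long genes held few centres. Of 204 genes in 12 lists, 4 held a centre (1.96%, 0.537 to 4.94), near the 1.68% of all protein-coding genes. They were SEC10 among 12 exocyst subunits, GSL03 (score 48.4) among 12 callose synthases, SEX1 (33.2) among 25 starch and sucrose enzymes and SNC1 (54.7) among 19 named immune receptors. SEX1 is the glucan, water dikinase that starts the breakdown of leaf starch. None of the 10 cellulose synthases, the 12 TOR and SnRK1 subunits, the 22 sugar sensing and transport genes or the 24 abscisic acid signalling genes held one, and none of 22 chromatin regulators, 16 myosins, 15 housekeeping and 15 photosystem genes. A 0 in lists of this size allows shares of up to 30%, 25%, 13.6% and 12.5% in the first 4 and up to 13.6%, 18.8%, 20% and 20% in the others (3 counts of the total). Shared glucose peaks were centred in 13 of the 204 genes, 3 of them in the abscisic acid list, and no-glucose-list-only peaks in 8. The shares of all genes that held such centres were not counted. The 1.68% is for glucose-list-only centres, so these counts are not set against it. Among families taken by symbol, NRT nitrate transporter genes had 3 of 14 (21.4%, 4.66 to 50.8) and HDG genes 2 of 10 (20%, 2.52 to 55.6). PUB genes had 2 of 22 (9.09%, 1.12 to 29.2), TBL genes 3 of 41, RLP genes 2 of 52 and EMB genes 6 of 160. Genes with a CYP symbol had 3 of 229, those with an ABC symbol 4 of 124, WRKY 1 of 67 and MYB 1 of 120. NAC genes had 0 of 83, and genes with bHLH in the symbol 0 of 4. All these counts leave out family members under other symbols, among them PIF3, a bHLH factor that held a centre (32.5). These families were looked at after the values were seen. The CYP genes so counted include CYP79B2, a cytochrome P450 that starts indole glucosinolate synthesis, with a score of 98.9 and a peak over 100% of the gene. The MYB gene so counted is MYB34, a regulator of the same pathway, with 39.5. Neither had a listed no-glucose peak on the gene or within 1 kb of it, as was the case for 76.2% of all 462 genes.

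The named genes below were picked from the 462 for their known roles after their values were seen. Other genes of the same roles among the 462 are not named, so what the picked genes share is a description of them alone. Of all 462 genes, 76.2% had no listed no-glucose peak on the body or within 1 kb. Its absence at a picked gene is therefore the usual case. For nitrogen, NRT2.7, a nitrate transporter of the seed vacuole, had the highest score (95.1), with a peak that covered 100% of the gene (chr5:4694960-4697079). NIA2, the main nitrate reductase of leaves, had 81.1 (chr1:14159661-14161838), with the whole peak inside the gene. The nearest listed no-glucose peak was 34172 bp away, with 4 numbers missing between the listed neighbours. The NIA2 peak is one of the 13 in gene-poor windows. GLT1, the NADH-dependent glutamate synthase, had 33.2, NRT1.7 had 31.9 and NRT1:2, a transporter that also carries abscisic acid, had 31.2. No listed no-glucose peak lay within 1 kb of NRT2.7, NIA2 or NRT1.7, whereas GLT1 had one at 126 and NRT1:2 one at 352.

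Among proton pump genes, AVP1 had 134, HA2 32.2 and VHA-A, the catalytic subunit of the vacuolar ATPase, 30.8. The AVP1 peak covered nearly the whole gene, and its neighbour in the no-glucose list, at 105, lay 528 bp beyond the edge. In translation and ribosome assembly, LOS1 (161) was followed by the cap-binding factor EIF4E (54.1), NAF1 (50.5) and NAP57 (40.2), which is the pseudouridine synthase of ribosomal RNA. In EIF4E, NAF1 and NAP57 the nearest listed no-glucose peak was 12869, 10733 and 36704 bp away. Missing no-glucose numbers between the neighbours of these peaks were 3, 2 and 4.

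Of genes of carbon metabolism, RHM1, which makes UDP-rhamnose for cell walls and flavonols, had 56.6, sucrose synthase SUS6 had 39.3, phosphoenolpyruvate carboxylase PPC2 had 38.8 and G6PD4 had 38.2. MIPS2, a myo-inositol phosphate synthase, had 33.5, SEX1 33.2 and the malate dehydrogenase c-NAD-MDH2 31.0. Apart from RHM1, these scores lay under the median of all 448 peaks, 42.3. Those of MIPS2, SEX1 and c-NAD-MDH2 also lay under the lower quartile, 34.6. None of these genes had a listed no-glucose peak on the body or within 1 kb, as was the case for 76.2% of all 462 genes. The centre in MIPS2 also lay in AT2G22241. RHM1, PPC2 and MIPS2 lay where no no-glucose number was missing. In phenylpropanoid metabolism, CYP84A4 had 58.0, the phenylalanine-forming arogenate dehydratase ADT6 46.9, phenylalanine ammonia-lyase PAL2 42.1 and ferulate 5-hydroxylase FAH1 34.5. The centre in ADT6 also lay in TIL1, which held the whole peak. Missing no-glucose numbers between the neighbours of these 4 were 1, 1, 8 and 2.

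Among genes of light and hormone response, FER (84.8) and the DELLA repressor gene RGL1 (65.5) came first. NCED9, an enzyme of abscisic acid synthesis, had 43.5, the brassinosteroid hydroxylase DWF4 33.5, the phytochrome-interacting factor PIF3 32.5, the jasmonate repressor JAZ5 32.4 and the type-B cytokinin response regulator RR1 30.1. Of these, FER, PIF3, JAZ5 and RR1 had a listed no-glucose peak elsewhere on the gene, with scores of 300.2, 164, 129 and 221. RGL1, DWF4 and NCED9 had none on the gene or within 1 kb, like 76.2% of all 462 genes. In immunity, LecRK-I.9 (104) preceded MOS1 (70.6), SNC1 (54.7), the TOPLESS-related corepressor TPR1 (39.8) and the salicylic acid transporter EDS5 (30.1). MOS1 and TPR1 are both known as genetic partners of the immune receptor SNC1. MOS1 and SNC1 had no listed no-glucose peak within 1 kb, while LecRK-I.9 had one at 117, EDS5 one at 332 and TPR1 one at 427. Of the protein-folding genes, mtHsc70-1 had 42.8, BZIP28 38.9, cpHsc70-1 37.1 and Fes1C 34.9, and a no-glucose peak stood on mtHsc70-1, at 124, and on cpHsc70-1, at 272. The centre in Fes1C also lay in AT5G02160.

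**Figure D5:**
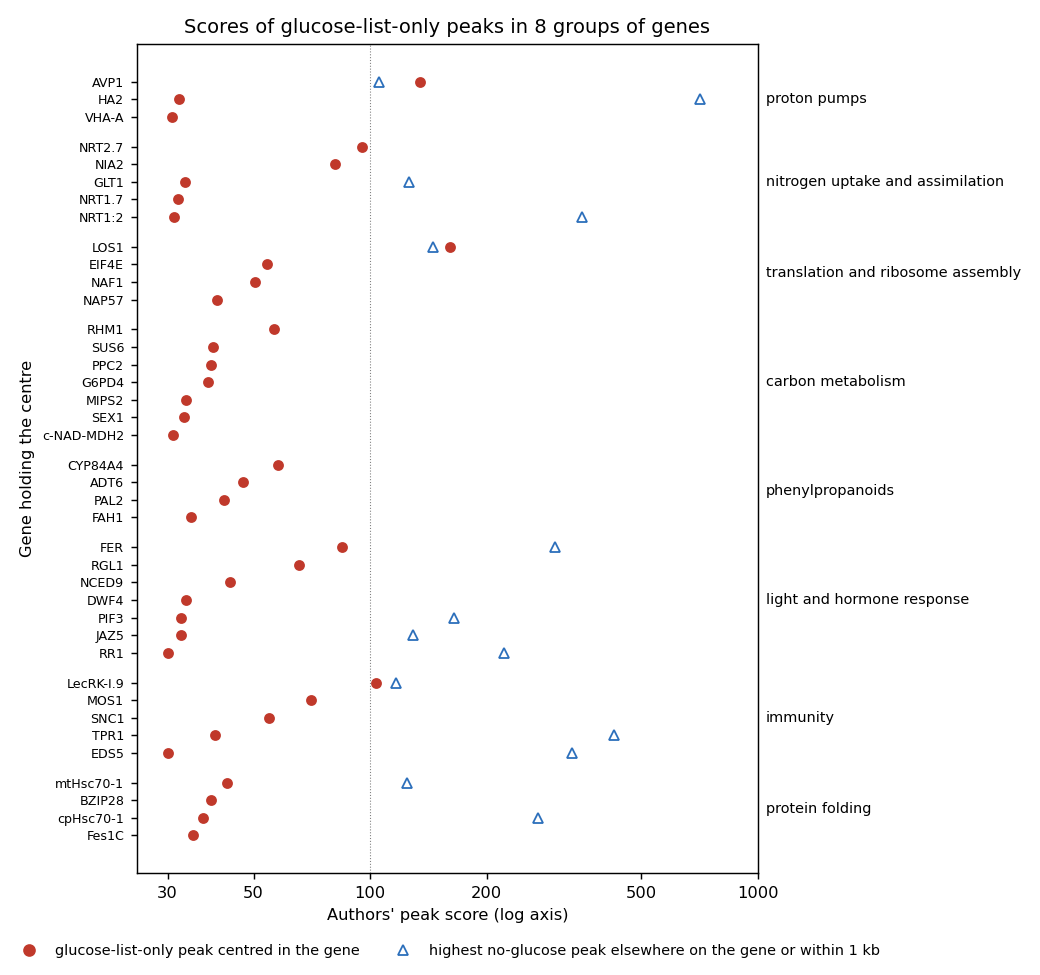
The plot gives the authors' score on a log axis for the glucose-list-only peak centred in each of 39 genes of 8 groups (red points), and for the highest listed no-glucose peak elsewhere on the gene or within 1 kb where there was one (blue triangles). Most red points lie between 30 and 100 and 3 lie above 100, AVP1, LOS1 and LecRK-I.9, and no triangle can lie under 100.01, where that list starts, so points and triangles are not compared in size.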

How the data were processed

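ANAC060-GFP precipitates of glucose and no-glucose seedlings and wild-type inputs were sequenced, 1 library each. The submitters' processing notes name BWA 0.7.15-r1140 and TAIR10. Per the file headers, MACS made both peak lists without its local background, and the glucose list without a shift model and at a p-value limit of 0.001. The MACS version: not given in the sources used here. Local differences in the input, such as copy number, are then not corrected. The only measured column is a score per peak, given by the authors and used as deposited. No read totals were used, so the depth is unknown.

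BED starts had 1 added. Where 2 genes held a centre, the one with more overlap gave the lengths and positions. Peaks of the lists that overlapped by 1 bp or more were called shared. Genes came from the RefSeq table of TAIR10.1, whose positions served for joining and are not printed. It gives no strand, exons or sequence, so gene starts, exons and motifs were not analysed here. List genes were matched by locus, 204 of 206. Shares have exact binomial and medians order-statistic 95% intervals, for counting error only. The work used Python 3.11.15, pandas 2.3.3, numpy 2.4.6 and scipy 1.17.1. Interval steps were tested on simulated data.

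Members, lists and alternatives were chosen with earlier results of these data known. Named genes are those with the 25 highest scores, several centres, a place in a list, or the nearest, farthest or widest peaks. Other names, among them those with no missing number, were picked after their values were seen.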

Additional observations from a re-analysis of the deposited data

How the results depend on the processing

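The 448 peaks were 417 with no-glucose peaks widened by 500 bp, 434 with peaks within 200 bp merged, 435 without the gene-poor windows, 591 at 50% reciprocal overlap and 623 at equal numbers of peaks, all within 1.5 times. They fell to 163 at a score of 50 or more, 26 at 100 or more, 245 with the centre at least 250 bp inside the gene, 69 with the whole peak inside and 70 with no missing no-glucose number, the last an alternative chosen after seeing the data. The gene-body share of 60.4% was 47.3% at a score of 100 or more, 33.0% at 250 bp inside, 9.30% for whole peaks and 64.8% with no missing number. In the same order without the score limit, median gene length was 2847, 3584 and 2852 bp (2688 bp as reported) and the share of the peak inside the gene 83.4%, 100% and 76.7% (66.0%). The first of these follow from the stricter position itself, and for the missing numbers the cause was not tested. List genes with a centre were 2 of 204 at a score of 50 or more, 6 if a touch of the body counts and 4 without the gene-poor windows. No paired analysis was possible because each group has 1 library. Low scores limit the group: most lie near the lower limit of the glucose list, and the no-glucose list starts higher, at 100.01.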
